A study of Mus musculus with 7 samples.

Results

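The CDK inhibitors are the proteins that hold cyclin-dependent kinases (CDKs), the engines of the cell cycle, in check, and their mRNAs were examined here in hematopoietic stem and progenitor cells that carried or lacked PROSER1. The 7 genes were taken by symbol from the 48440 rows of the deposited table, and each symbol was found in a single row: Cdkn1a, Cdkn1b and Cdkn1c of the CIP/KIP family, and Cdkn2a, Cdkn2b, Cdkn2c and Cdkn2d of the INK4 family. RNA was sequenced from LSK cells, which are bone marrow (BM) cells without lineage markers that carry Sca1 and cKit and include hematopoietic stem cells (HSCs) as well as multipotent progenitors. The cells were sorted 77 days after unfractionated BM of wild-type or PROSER1 KO mice had been given to C57BL/6 recipients irradiated with 9.5 Gy, so that all 7 libraries, 4 wild-type and 3 PROSER1 KO, came from transplanted marrow in irradiated hosts. The KO is a constitutive, endonuclease-mediated deletion, present in every donor cell and not only in the blood, and a marker separating donor from remaining recipient cells in this sort is not given in the sources used here. The age of the donors is not given there either.

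Both inhibitor families act on the step from G1 into S phase. INK4 proteins bind CDK4 and CDK6 and keep D-type cyclins off them, whereas CIP/KIP proteins bind cyclin-CDK complexes and block above all CDK2 with cyclin E or cyclin A. When these kinases are free, they phosphorylate the retinoblastoma family of pocket proteins, E2F factors are released and S-phase genes are transcribed. In the blood system, p57 (Cdkn1c) and p27 (Cdkn1b) are known as keepers of HSC quiescence, p21 (Cdkn1a) as the arrest arm of the p53 response, p18 (Cdkn2c) as an inhibitor whose loss lets HSCs self-renew more, and the products of Cdkn2a as inducers of senescence that Polycomb proteins such as BMI1 keep silent.

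Each value below is a normalized count, that is, the number of read pairs on a gene divided by 1 size factor per library. The libraries held 33143619 to 45140743 read pairs on genes, and 3 read pairs, as much as a count of 0 can hide, equal 2.54 to 3.48 normalized counts depending on the library (counting error only). Proser1 itself stood at 2019 to 2153 in the wild-type libraries and at 2338 to 2464 in the PROSER1 KO libraries (log2 fold change 0.19, SE 0.049, limma adjusted p = 0.204), so its mRNA was not lower under the KO label and did not check the labels. All directions below therefore rest on the labels. Surface-marker genes of the sort were abundant in every library, with Kit between 25535 and 32357 and Ly6a, which encodes Sca1, between 3961 and 6822. RNA of plasma cells, which are not part of the LSK population, was abundant too: Jchain, the joining chain of secreted antibodies, lay between 151607 and 384345. In such bulk libraries, fewer cells of a type and less RNA per cell cannot be told apart.

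The promoters of Cdkn2c and Cdkn1a are shown first, since Cdkn2c was the inhibitor with the clearest difference and the Cdkn1a promoter holds a letter pattern of the sites of p53, its best known regulator. Sequences are those of RefSeq on GRCm38.p6. Of the 7 genes, 6 matched the promoter table, with 9 start sites in all, and Cdkn1c did not match. The stretches below run 5′ to 3′ on the strand of the gene, with bases of annotated exons left out. In Cdkn1a these were the last 3 of the 250 bases before the start site, and in Cdkn2c the first 13. The Cdkn2c stretch thus follows an annotated exon and lies inside the annotated gene (chr4:109660876-109667189), before an inner start site. In Cdkn2c (chr4:109665373-109665609, reverse strand), the capitals mark TTTCGCG, a letter pattern of E2F binding sites, which begins 200 bases before the start site. In Cdkn1a (chr17:29090729-29090975, forward strand), they mark CATGNNNNNNCATG, a core pattern of p53 sites, which begins 48 bases before it.
Cdkn2c: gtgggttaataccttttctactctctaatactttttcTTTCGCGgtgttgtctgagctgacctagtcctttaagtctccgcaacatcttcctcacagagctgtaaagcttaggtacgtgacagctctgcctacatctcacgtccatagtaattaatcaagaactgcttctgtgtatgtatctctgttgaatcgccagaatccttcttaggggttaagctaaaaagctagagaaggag
Cdkn1a: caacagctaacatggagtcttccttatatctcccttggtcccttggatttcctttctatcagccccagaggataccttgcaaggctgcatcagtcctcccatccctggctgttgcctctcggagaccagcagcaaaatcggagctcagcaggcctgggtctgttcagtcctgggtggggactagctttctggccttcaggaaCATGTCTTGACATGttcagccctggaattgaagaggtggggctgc

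Patterns of this kind were sought on both strands of the 250 bases before each of 32851 mouse start sites. TTTCGCG occurred in 0.703% of them and CATGNNNNNNCATG in 0.49%, and among the 9 windows of the inhibitors each was found only once, in the windows printed above. The related E2F pattern TTTGGCG (1.26% of all windows) was in none of the 9, and TTTCCCG (2.75%) was in 1, at a start site of Cdkn2a. GGGCGG, the letters of an Sp1 site (32.7% of all windows), was present in the other window of Cdkn1a and of Cdkn2c, in 1 window of Cdkn2a and in the windows of Cdkn1b and Cdkn2d. Of these windows, that of Cdkn2c lies wholly in annotated exons of its gene (250 bases), that of Cdkn2d with 198 bases and that of Cdkn2a with 34. These matches describe letters in a sequence, and binding was not measured in these libraries.

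Per length of exon, Cdkn1b was the most abundant inhibitor mRNA in these bulk libraries, followed by Cdkn2d and Cdkn2c, then Cdkn1c and Cdkn1a. Cdkn2a and Cdkn2b lay near the limit of detection. Which cells carried each mRNA was not tested, and plasma cell RNA was abundant in the same libraries. In normalized counts per kb of exon, Cdkn1b stood at 829 ± 37.5 (SD, n = 4) in wild-type and 882 ± 21.4 (SD, n = 3) in PROSER1 KO libraries. It lay above every other inhibitor in all 7 libraries. Cdkn2d came second in wild-type libraries, at 480 ± 15.7 per kb against 412 ± 44.4 for Cdkn2c, and the ranges of the 2 genes overlapped. In PROSER1 KO libraries the means were in the opposite order, with Cdkn2c at 567 ± 57.9 and Cdkn2d at 501 ± 95.9 per kb. Within a library, Cdkn2c exceeded Cdkn2d in 1 of 4 wild-type libraries (replicate 3) and in 3 of 3 PROSER1 KO libraries. Cdkn1c, at 151 ± 8.1 and 131 ± 22.8 per kb, and Cdkn1a, at 134 ± 24.4 and 117 ± 8.1, overlapped in both groups, and Cdkn1c was the higher of the 2 in 3 of 4 wild-type and 2 of 3 PROSER1 KO libraries. Cdkn2a (6.72 and 13 per kb) and Cdkn2b (6.52 and 5.27) lay far below the rest, and their ranges overlapped in the wild-type group.

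**Figure D1:**
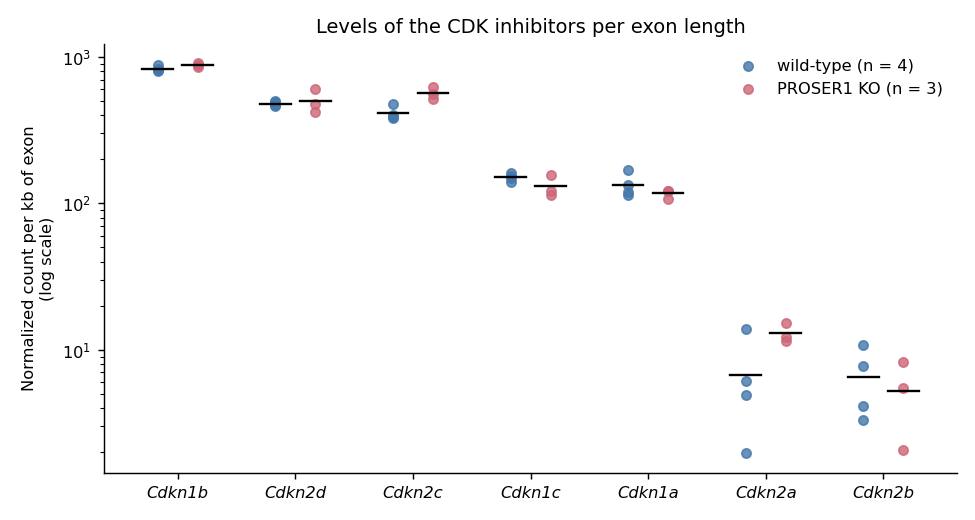
Levels of the 7 CDK inhibitors in normalized counts per kb of exon on a log axis, in order of the wild-type mean. Points are libraries (4 wild-type, 3 PROSER1 KO) and black lines are group means. Cdkn1b leads in all libraries, Cdkn2c lies below Cdkn2d in wild-type means and above it in PROSER1 KO means, and Cdkn2a and Cdkn2b lie far below the others.

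Of the 7 inhibitors, only Cdkn2c was higher in every PROSER1 KO library than in every wild-type library, and no inhibitor was called. limma was fitted to log2(normalized count + 1) of the 16251 genes whose mean reached 10, a filter that 6 of the 7 inhibitors passed and Cdkn2b did not. At an adjusted p under 0.05, 0.308% of all tested genes were called (0.142% higher and 0.166% lower in PROSER1 KO), and 0.258% when a fold change above 1.5 was also required, while 0 of the 6 tested inhibitors were called by either rule. At an unadjusted p under 0.05 the count was 1 of 6 (Cdkn2c), where the share over all tested genes was 9.73%. With the counting tools the number of inhibitors called at an adjusted p under 0.05 was 0 for edgeR and 1 for DESeq2 (Cdkn2c). Over all genes, edgeR called 48 of 16251, and DESeq2 called 1.65% of the 18903 to which it gave an adjusted p. Groups that do not overlap, with PROSER1 KO higher, were found for 1 of 6 tested inhibitors and for 5.17% of all tested genes, and with PROSER1 KO lower for 0 of 6 and for 4.83%.

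**Figure D2:**
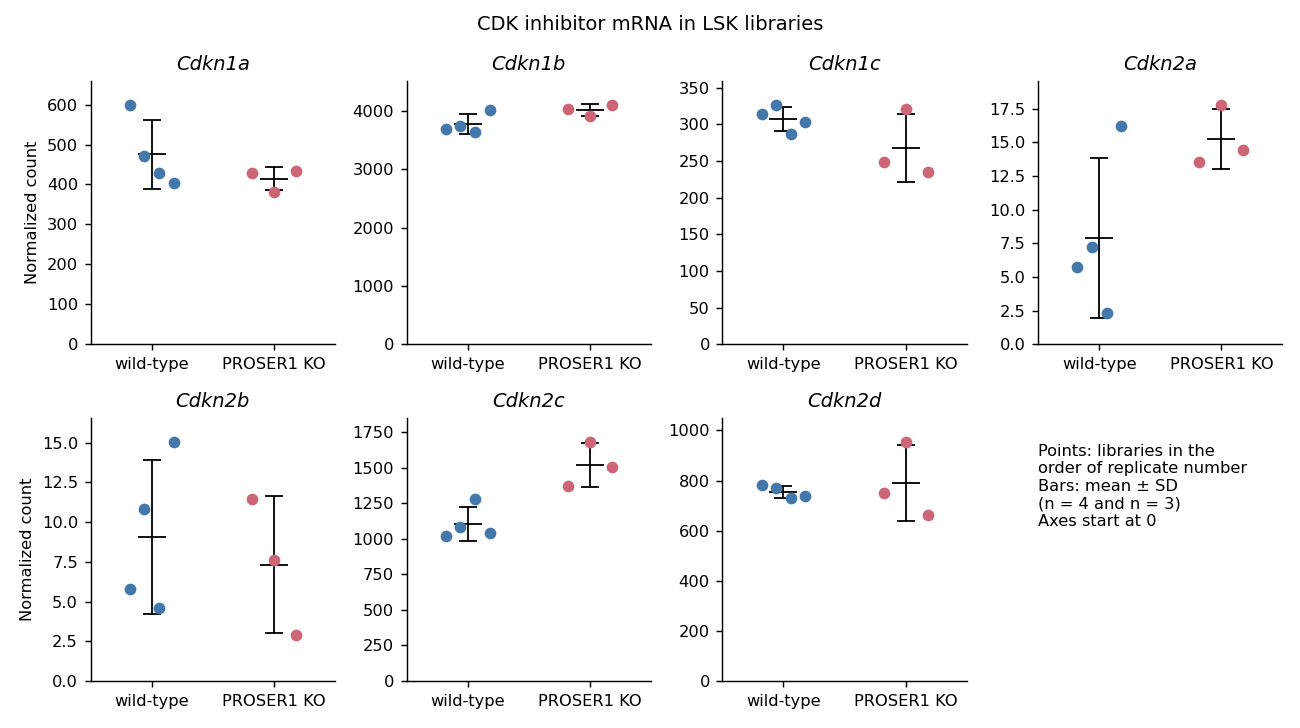
Normalized counts of the 7 CDK inhibitors in each library, with a linear axis from 0 for each gene. Points are libraries in the order of their replicate number, and bars give the mean and SD of 4 wild-type and 3 PROSER1 KO libraries. The groups overlap for every gene except Cdkn2c, whose lowest PROSER1 KO library (1375) lies above the highest wild-type library (1282).

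Cdkn2c, which encodes p18, lies on the reverse strand of chromosome 4 (chr4:109660876-109667189), with 2686 exon bases. The wild-type libraries 1 to 4 had normalized counts of 1020, 1085, 1282 and 1042, and the PROSER1 KO libraries 1 to 3 had 1375, 1685 and 1507. Replicate 3 stood above the other wild-type libraries, by more than the gap that separated it from the lowest PROSER1 KO library, but the groups did not overlap. Mean levels were 1107 ± 119 (SD, n = 4) in wild-type and 1522 ± 155 (SD, n = 3) in PROSER1 KO cells. Its log2 fold change was 0.46 (SE 0.097, 95% interval 0.24 to 0.68, limma adjusted p = 0.132). This is a fold change of 1.38, below the 1.5-fold threshold, although the interval reaches past it.

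The call for Cdkn2c differed between tools, and the size of its difference hardly did. DESeq2 gave the same log2 fold change of 0.46 with an adjusted p of 0.000727. limma with robust variance estimates gave an adjusted p of 0.0329, and edgeR gave 0.137. With 1 library left out at a time, the log2 fold change ran from 0.38 to 0.53 and the limma adjusted p from 0.0521, without wild-type replicate 3, to 0.353.

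Cdkn2d, which encodes p19Ink4d, another INK4 protein that binds CDK4 and CDK6, lies at chr9:21288410-21291407 on the reverse strand. It was measured at 782.8, 768.9, 729.9 and 739.6 in wild-type, against 752.1, 955.4 and 660.5 in PROSER1 KO libraries. PROSER1 KO replicate 2 was the highest of all 7 and replicate 3 the lowest, with the wild-type libraries close together between them. The log2 fold change was 0.05 (SE 0.115, 95% interval -0.21 to 0.31, limma adjusted p = 0.935), and without PROSER1 KO replicate 2 it was -0.10 (adjusted p = 0.771) and without replicate 3 it was 0.17 (adjusted p = 0.721), so that no direction can be given.

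Cdkn2a and Cdkn2b are neighbours on chromosome 4 (chr4:89274471-89294653 and chr4:89306299-89311039, both on the reverse strand). Cdkn2a yields p16, an INK4 protein, and, from another first exon and reading frame, p19Arf, which stabilizes p53, and counts per gene do not separate these products. Wild-type libraries had 5.77, 7.21, 2.30 and 16.2 normalized counts of it and PROSER1 KO libraries 13.6, 17.8 and 14.4, resting on 2 to 21 read pairs per library. In 3 of 4 wild-type libraries the value lay below all PROSER1 KO libraries, whereas replicate 4 lay within them. The log2 fold change of 1.11 had an SE of 0.579 and a 95% interval from -0.20 to 2.41 (limma adjusted p = 0.579). A difference was thus not detected, with few read pairs and a wide spread of the wild-type libraries (SD 5.94 at a mean of 7.88). With 1 library left out at a time, its log2 fold change ran from 0.71 without wild-type replicate 3 to 1.51 without wild-type replicate 4. Cdkn2b, which encodes p15, an INK4 protein known as a target of TGF-beta signalling, stood at 5.77, 10.8, 4.60 and 15.1 in wild-type, against 11.5, 7.62 and 2.88 in PROSER1 KO libraries, on 3 to 13 read pairs. The groups overlapped throughout, and with no filter on low values its log2 fold change was -0.30 (limma adjusted p = 0.897).

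Among the CIP/KIP genes, Cdkn1b (p27, chr6:134920401-134925513, forward strand) had the least spread. Wild-type libraries had 3686, 3744, 3645 and 4023 normalized counts of it and PROSER1 KO libraries 4033, 3911 and 4103. All PROSER1 KO libraries exceeded wild-type replicates 1 to 3, and the groups overlapped through wild-type replicate 4. Its log2 fold change was 0.09 (SE 0.049, 95% interval -0.02 to 0.20, limma adjusted p = 0.591), an interval that lies well inside 1.5-fold in either direction.

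Cdkn1c (p57, chr7:143458339-143461050, reverse strand), an imprinted gene expressed mainly from the maternal copy, was measured at 313.5, 326.3, 287.4 and 302.6 in wild-type, against 248.3, 320.7 and 234.3 in PROSER1 KO libraries. PROSER1 KO replicates 1 and 3 were the lowest of all 7, and replicate 2 was the second highest. The log2 fold change was -0.21 (SE 0.132, 95% interval -0.51 to 0.086, limma adjusted p = 0.648), and it was -0.35 without PROSER1 KO replicate 2 (adjusted p = 0.439), -0.16 without replicate 1 (adjusted p = 0.783) and -0.12 without replicate 3 (adjusted p = 0.857). Gm44732 on the opposite strand covers 625 of its exon bases, 30.7% of the total, and read pairs of the 2 genes can be told apart only if counting used strand, which the sources used here do not state. Gm44732 itself was counted at 0 to 8.11 in wild-type and 0 to 4.23 in PROSER1 KO libraries.

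Cdkn1a (p21, chr17:29090976-29100727, forward strand) was measured at 599.1, 470.6, 427.6 and 404.6 in wild-type, against 428.7, 381.6 and 434.0 in PROSER1 KO libraries. Wild-type replicate 1 was the highest, and the other 6 libraries lay between 381.6 and 470.6 with the groups mixed. The log2 fold change was -0.18 (SE 0.138, 95% interval -0.49 to 0.13, limma adjusted p = 0.71), and without wild-type replicate 1 it was -0.07 (adjusted p = 0.936). As for Cdkn1c, a gene on the opposite strand, AC167363.2, shares exon bases with Cdkn1a (273 bases, 7.68% of the total).

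**Figure D3:**
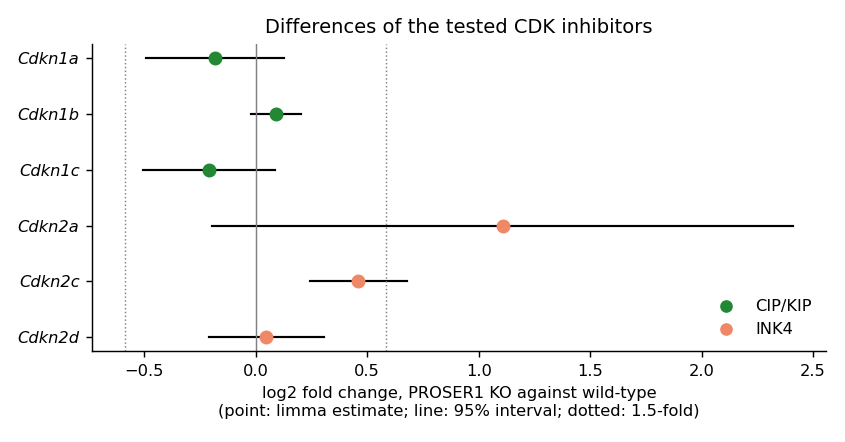
Log2 fold change of PROSER1 KO against wild-type LSK cells for the 6 tested CDK inhibitors, with the limma estimate (point, coloured by family) and its 95% interval (line). Dotted lines mark 1.5-fold in either direction. The interval of Cdkn2c (0.24 to 0.68) lies above 0, and the other 5 include 0, with that of Cdkn2a the widest.

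The make-up of the inhibitor pool was described as each gene's share of the summed per-kb level of all 7. The sum was 2008 to 2029 in wild-type and 2134 to 2379 in PROSER1 KO libraries. Cdkn2c made up 18.8% to 23.8% of it in wild-type and 23.9% to 26.4% in PROSER1 KO libraries, and Cdkn1c 7.02% to 7.92% and 5.38% to 6.61%. Neither share overlapped between the groups. The per-kb ratio of Cdkn2c to Cdkn1c was accordingly 2.47 to 3.39 in wild-type and 3.99 to 4.88 in PROSER1 KO libraries. Ratios of Cdkn2c to Cdkn2d and to Cdkn1a did not overlap either. The ratio of Cdkn2c to Cdkn1b did overlap, at 0.44 to 0.60 against 0.58 to 0.73, and so did that of Cdkn1b to Cdkn1c. How often such shares and ratios separate the groups for other genes was not tested. The shares of Cdkn1b, Cdkn1a and Cdkn2d overlapped, and so did the summed share of the INK4 family, at 43.5% to 47.1% against 46.6% to 52.8%. These shares are built from the values above, so that Cdkn2c enters each of them.

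The inhibitors did not all vary in 1 direction across the libraries. Over the 7 libraries, which share their group difference and their depth, Pearson's r between tested inhibitors ran from -0.62 (Cdkn1b with Cdkn1c, and Cdkn1a with Cdkn2c) to 0.88 (Cdkn1b with Cdkn2a). The next highest was 0.66 (Cdkn1c with Cdkn2d). Values of r with Cdkn2a rest on its 2 to 21 read pairs per library. All of these values are descriptions only.

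The genes whose pattern was most like each inhibitor were taken from those with a mean of at least 100, by Pearson's r of log2(normalized count + 1) over the 7 libraries. For Cdkn2c they were Arhgap11a (r = 0.989), a GTPase-activating protein of dividing cells, Exog (0.989), a mitochondrial nuclease, and Tubb6 (0.987), a beta-tubulin, and 149 genes had an r above 0.9. For the other inhibitors 31 to 70 genes did so. The nearest were Sorl1, Stat6 and Tm2d1 for Cdkn1a (0.998, 0.973 and 0.956), Igkv5-39, Gxylt1 and Igdcc4 for Cdkn1b (0.987, 0.980 and 0.970), and Snx5, Cenpv and Cfap298 for Cdkn1c (0.969, 0.962 and 0.959). For Cdkn2a they were Man1a2, Clec2d and Nr1d2 (0.971, 0.968 and 0.960), and for Cdkn2d Mphosph6, Gm10073 and Psmd2 (0.975, 0.966 and 0.961). With 11995 or more genes compared over 7 libraries, high values of r arise for any gene.

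The genes next to the inhibitors were described from their positions in GENCODE M21 (GRCm38). Within 100 kb of an inhibitor lay 46 other genes of the table, of which 26 were tested. Of these 26, 0 were called by limma at an adjusted p under 0.05, beside 0.308% of all tested genes. At an unadjusted p under 0.05 stood 1 of 26, beside 9.73% of all tested genes. That gene was 9630013D21Rik, a noncoding transcript on the same strand as Cdkn2c that lies 3.02 kb beyond its 3′ end. Wild-type libraries had 248, 237, 333 and 260 normalized counts of it and PROSER1 KO libraries 446, 448 and 495. As for Cdkn2c, wild-type replicate 3 was the highest wild-type library and the groups did not overlap. The log2 fold change was 0.79 (SE 0.133, 95% interval 0.49 to 1.09, limma adjusted p = 0.0526). Without wild-type replicate 3 it was 0.90 (adjusted p = 0.0167), and DESeq2 gave 0.78 (adjusted p = 2.46e-05). On the other side of Cdkn2c, 9.40 kb away, Faf1, a ubiquitin-binding adaptor gene, had a log2 fold change of 0.05 (adjusted p = 0.811).

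None of the nearest tested genes on either side of the other inhibitors was called. Trp53cor1, the long noncoding RNA also known as lincRNA-p21, lies 11.8 kb from Cdkn1a and had a log2 fold change of 0.05 (adjusted p = 0.953), and Rab44 on the other side had 0.06. Lockd, a noncoding RNA that begins 3.58 kb beyond Cdkn1b, had 0.17 (adjusted p = 0.704), and 2810454H06Rik on the other side had -0.38 (adjusted p = 0.528). The groups of 2810454H06Rik did not overlap, with PROSER1 KO lower. The same held for Cpne5, 54.8 kb from Cdkn1a and not its nearest gene (-0.52, adjusted p = 0.515). Over all tested genes, 4.83% did not overlap with PROSER1 KO lower, and 5.17% with PROSER1 KO higher. Around Cdkn1c, the log2 fold change was -0.20 for Slc22a18 and 0.18 for Kcnq1ot1, the noncoding RNA of the imprinting centre of this domain, 162 kb away. On either side of the Cdkn2a and Cdkn2b genes, Mtap, 93.4 kb from Cdkn2a, had 0.02, and Gm12669, the nearest tested gene beyond Cdkn2b but 2495 kb away from it, had -0.18. Kri1 and Ap1m2 around Cdkn2d had -0.08 and 0.21.

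The direct partners of the inhibitors were measured at 9 CDK and cyclin genes. None was called by limma and 4 passed an unadjusted p under 0.05, beside 0.308% and 9.73% of all tested genes. Of the 9, 7 had a positive and 2 a negative log2 fold change. Their median was 0.10, beside 0.00 and 50.6% positive over all tested genes. The G1 cyclin gene Ccne2 had the highest value, with 770, 870, 886 and 772 in wild-type, against 896, 1128 and 1030 in PROSER1 KO libraries (log2 fold change 0.30, SE 0.095, adjusted p = 0.334). Ccnd1, a D-type cyclin gene, had the lowest, with 2629, 2502, 2726 and 2520 in wild-type, against 2417, 2468 and 2251 in PROSER1 KO libraries (-0.13, SE 0.055, adjusted p = 0.503). The groups overlapped for neither of these, nor for Cdk2 and Ccnd2, which were higher in PROSER1 KO. Groups thus did not overlap for 3 higher and 1 lower gene of 9, beside 5.17% and 4.83% of all tested genes. These shares also stand beside the counts of the lists below. The INK4 targets Cdk4 and Cdk6 had log2 fold changes of -0.01 and 0.15, with overlapping groups.

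Downstream of the kinases, 13 pocket protein and E2F genes had a median log2 fold change of 0.04, with 9 positive, 4 negative and 0 called by limma (2 at an unadjusted p under 0.05). E2f2, an activating E2F gene, had 892, 923, 908 and 827 in wild-type, against 1117, 1039 and 1045 in PROSER1 KO libraries, groups that did not overlap (log2 fold change 0.27, adjusted p = 0.204). E2f5, a repressive E2F gene, had the lowest value (-0.20, adjusted p = 0.524), at 371, 336, 346 and 347 in wild-type, against 303, 300 and 308 in PROSER1 KO libraries. Its groups did not overlap either, with PROSER1 KO lower. Of the 13 genes, groups thus did not overlap for 1 higher and 1 lower. Rb1 had -0.07 (adjusted p = 0.888).

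Genes that remove CIP/KIP proteins through ubiquitin were measured too, since p27 in particular is set by its turnover. Of 11 tested genes, 7 were positive, 4 negative and 0 called by limma (1 at an unadjusted p under 0.05), with a median of 0.02. Skp2, whose product recognizes p27 for degradation, was the highest, at 1036, 1239, 1078 and 1076 in wild-type, against 1211, 1443 and 1367 in PROSER1 KO libraries (log2 fold change 0.28, adjusted p = 0.322). Its groups overlapped through wild-type replicate 2. Rnf123, the ligase subunit that acts on p27 in the cytoplasm, was the lowest (-0.20, adjusted p = 0.553).

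Upstream regulators of the inhibitors showed no called change. Of 18 such genes, among them p53, FOXO, SMAD and Polycomb genes, 10 were positive, 8 negative and 0 called by limma (0 at an unadjusted p under 0.05), with a median log2 fold change of 0.04. The highest was Id1, a BMP- and TGF-beta-responsive gene at only 3.45 to 30.5 normalized counts (0.95, SE 0.599, adjusted p = 0.651), and the lowest was the Polycomb gene Cbx7 (-0.18, adjusted p = 0.625). Bmi1, the Polycomb repressor of Cdkn2a, had -0.09 (adjusted p = 0.614), and Trp53 0.05 (adjusted p = 0.830). Of 20 p53 target genes other than Cdkn1a, 9 were positive and 11 negative, with a median of -0.01 and 0 called by limma (1 at an unadjusted p under 0.05). They ranged from -0.63 for the BH3-only gene Pmaip1 (adjusted p = 0.535) to 0.51 for the death receptor gene Eda2r (adjusted p = 0.457).

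Mitotic genes, which are transcribed after cells have passed the step the inhibitors guard, all had a positive log2 fold change. The 20 genes ranged from 0.12 (Cdc20, an activator of the anaphase-promoting complex, adjusted p = 0.723) to 0.32 (Nusap1, a spindle protein gene, adjusted p = 0.408). Their median was 0.18, beside 0.00 and 50.6% positive over all tested genes. Of the 20, 0 were called by limma and 5 had an unadjusted p under 0.05, beside 0.308% and 9.73% of all tested genes. Mitotic genes rise and fall together in cycling cells, so the shared direction of the 20 is not 20 independent observations. The mean log2 deviation of these 20 genes from the average of the 7 libraries was -0.16, -0.16, 0.13 and -0.15 in wild-type, against -0.09, 0.26 and 0.17 in PROSER1 KO libraries. Wild-type replicate 3 lay above PROSER1 KO replicate 1, so the groups overlapped. All 20 stayed positive under each of the 18 alternative settings, and the median ran from 0.12 without PROSER1 KO replicate 2 to 0.29 without PROSER1 KO replicate 1.

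The libraries with the most Cdkn2c in each group were also those with the highest mitotic level. The log2 deviation of Cdkn2c was -0.31, -0.22, 0.02 and -0.28 in wild-type, against 0.12, 0.41 and 0.25 in PROSER1 KO libraries, with wild-type replicate 3 and PROSER1 KO replicate 2 highest in their group on both measures. The 11 B-lineage and plasma cell genes, by contrast, had their lowest mean deviation in the same 2 libraries, at -0.54 and -0.36, against values from -0.11 to 0.44 in the other 5. In this they were not alone, since the T and innate lymphoid genes were also lowest of their group there, at -0.35 and -0.74. PROSER1 KO replicate 1, with a mitotic deviation of -0.09, still had more Cdkn2c than any wild-type library. The part of cycling cells and of B-lineage, plasma cell and other lymphoid RNA in the Cdkn2c difference was not tested.

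**Figure D4:**
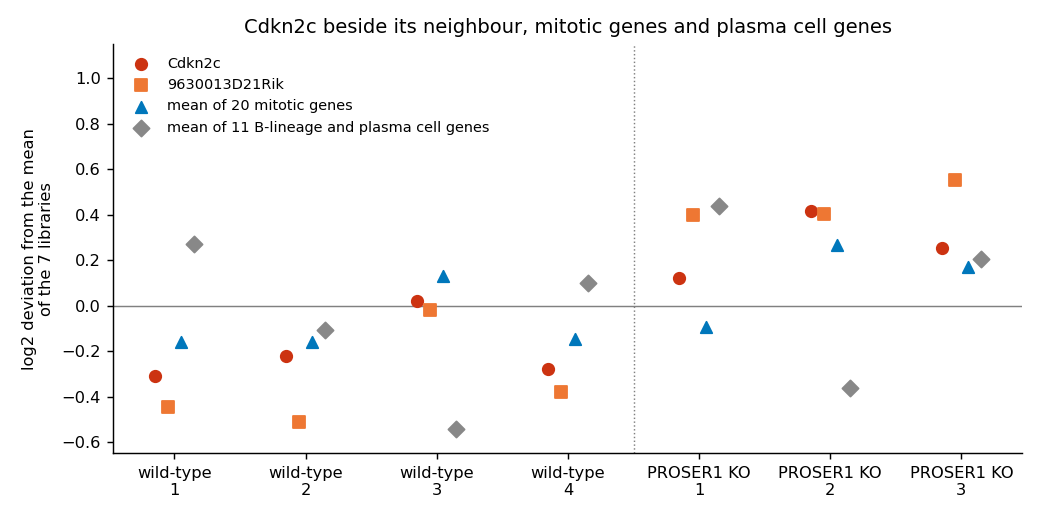
Log2 deviation from the mean of the 7 libraries, by library, for Cdkn2c, its neighbour 9630013D21Rik, the mean of 20 mitotic genes and the mean of 11 B-lineage and plasma cell genes. In both groups the library with the highest Cdkn2c (wild-type replicate 3 and PROSER1 KO replicate 2) also has the highest mitotic mean and the lowest B-lineage and plasma cell mean. Of the items shown, only Cdkn2c and 9630013D21Rik separate the groups.

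Markers of quiescent stem cells did not move in 1 direction. Of 14 long-term HSC genes, 10 were positive and 4 negative, with a median log2 fold change of 0.06. At an unadjusted p under 0.05, 3 were higher and 1 lower in PROSER1 KO, beside 9.73% of all tested genes in either direction. Groups did not overlap for 3 higher and 1 lower gene, beside 5.17% and 4.83% of all tested genes. By limma 1 was called, beside 0.308% of all tested genes, and this was Mmrn1, a gene of HSCs and megakaryocytes. Mmrn1 had 2840, 3188, 2445 and 2761 in wild-type, against 4137, 4529 and 4043 in PROSER1 KO libraries (log2 fold change 0.60, SE 0.084, adjusted p = 0.023). The groups did not overlap, but the call was lost without wild-type replicates 1 or 4 or without any 1 of the 3 PROSER1 KO libraries (adjusted p up to 0.108). Vwf, which marks platelet-biased HSCs, had the highest value (0.66, adjusted p = 0.528), with groups that overlapped. Mecom, a transcription factor gene needed for HSC maintenance, had the lowest, at 2683, 3030, 2772 and 2790 in wild-type, against 2160, 2610 and 2365 in PROSER1 KO libraries (-0.25, SE 0.071, adjusted p = 0.282), groups that did not overlap. Since Cdkn1c is itself enriched in long-term HSCs, these values stand beside it, and the share of long-term HSCs in the sorted cells was not tested.

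**Figure D5:**
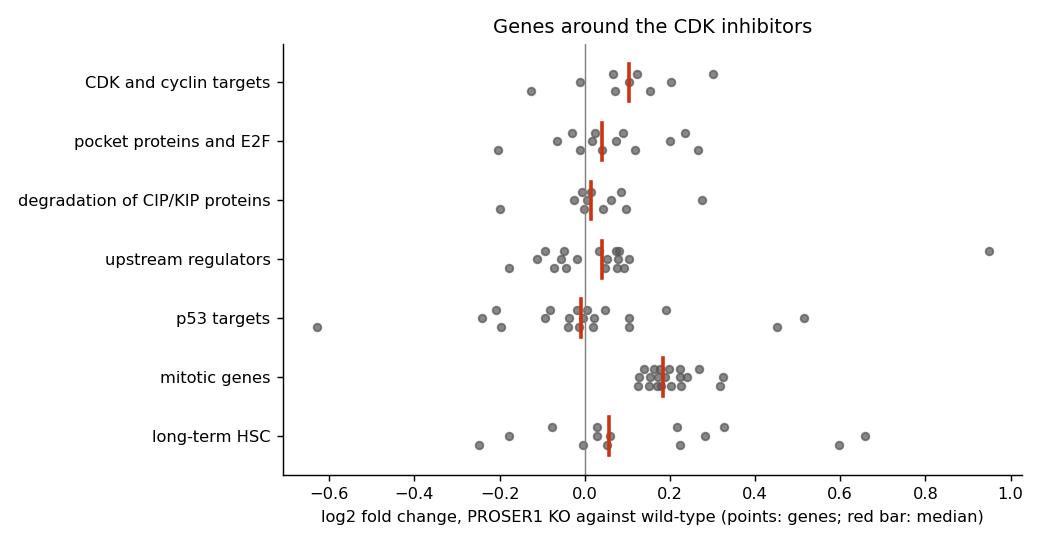
Log2 fold change of PROSER1 KO against wild-type for the tested genes of 7 lists around the CDK inhibitors, with 1 point per gene and a red bar at the median of each list. The mitotic genes lie between 0.12 and 0.32, and each of the other lists spans 0.

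Genes of other cell types that the sort could have carried in showed 0 calls in every list by limma, with overlapping summed levels. For B-lineage and plasma cell genes the sum was 160450 to 404148 in wild-type and 188881 to 282703 in PROSER1 KO libraries. Log2 fold changes ran from -0.61 (Ms4a1) to 1.58 (Igll1). Jchain made up most of this sum, which therefore says little about the other genes of the list. T and innate lymphoid genes (11 tested, sums 5497 to 8068 and 4949 to 8195) ran from -0.86 (Ncr1) to 1.61 (Cd3g), and granulocyte and monocyte genes (12 tested, 27084 to 30545 and 24592 to 29831) from -0.45 (Ccr2) to 0.47 (Csf1r). Erythroid and megakaryocyte genes (11 tested, 1165 to 2017 and 1482 to 2474) had their lowest value at -0.40 (Hba-a1), and mast cell and basophil genes (5 tested, 1082 to 1339 and 1130 to 1210) ran from -0.83 (Mcpt8) to 0.23 (Cpa3). Macrophage genes (6 tested, 336 to 497 and 474 to 659) ran from -0.52 (Adgre1) to 0.94 (C1qa), and stromal and endothelial genes (7 tested, 2345 to 3572 and 3458 to 4062) from -0.14 (Col1a1) to 1.59 (Cxcl12). The 5 genes of the LSK gate lay between -0.15 (Ly6a) and 0.09 (Flt3), and none of the markers in any list was at 0 in all libraries. At an unadjusted p under 0.05, 3 of 11 B-lineage and plasma cell genes were higher and 0 lower in PROSER1 KO. Of 12 granulocyte and monocyte genes, 1 was higher and 2 lower, and of 5 mast cell and basophil genes, 1 was higher and 1 lower. The T and innate lymphoid list had 1 lower gene and the stromal and endothelial list 1 higher gene. The erythroid and megakaryocyte, macrophage and LSK gate lists had 0. The share over all tested genes was 9.73% in either direction.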

How the data were processed

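The members, the gene lists, the lists of markers and the tests were chosen with earlier results of these data known, and the lists were written from general knowledge. Polyadenylated RNA of LSK cells was sequenced with a kit that keeps strand, from 4 wild-type and 3 PROSER1 KO samples. The authors trimmed reads with Trimmomatic, aligned them to mm10 by STAR, assigned read pairs to genes by featureCounts and scaled each library by a DESeq2 size factor. The strand setting of the counting is not given in the sources used here. The deposited values are thus a normalized signal (normalized counts), with no filter on low values. Whole read pairs were recovered from them, 100% of values being whole within 0.01 read pairs, and 0 columns were left unused. Of 48440 gene IDs, 48058 (99.2%) matched GENCODE M21, from which positions and exon lengths (the union of all annotated exons) come. Rows lacking a symbol (685) took up to 0.135% of a library's read pairs.

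Groups were taken from the labels. The log2(normalized count + 1) of the 16251 genes whose mean reached 10 was fitted with lmFit and eBayes (with trend) of limma 3.58.1 under R 4.3.3. All p-values were adjusted over these genes by Benjamini-Hochberg, and SEs and 95% intervals are those of limma. The pseudocount makes fold changes of low genes smaller. The fit was repeated with a pseudocount of 0.1 or 10, with no filter, with a mean of at least 50, with no trend, with robust variances, with quantile and TMM normalization, with edgeR 4.0.16 (quasi-likelihood) and DESeq2 1.42.0 on recovered read pairs, the replicate number as a block, and each library left out. The labels call the libraries biological replicates, and do not say whether each came from its own recipient or from pooled mice. Same-group libraries differed beyond sampling noise (chi-square of 30.4 to 96.6 per degree of freedom). The scripts were tested on simulated counts in which set genes were changed. Figures were drawn with matplotlib 3.10.9.

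Named genes were the 7 inhibitors, Proser1, the highest and lowest log2 fold change of each list and any list gene at an adjusted p under 0.05, genes within 100 kb of an inhibitor at that threshold or else the nearest tested gene on either side, and the 3 genes most like each tested inhibitor. Kit, Jchain, 9630013D21Rik as the neighbour at an unadjusted p under 0.05, Cpne5, Cdk2, Cdk4, Cdk6, Ccnd2, Rb1, Trp53 and Bmi1 were named after their values had been seen. The highest value of the erythroid and megakaryocyte list is not reported here.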

Additional observations from a re-analysis of the deposited data

How the results depend on the processing

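The number of genes called at an adjusted p under 0.05 and a fold change above 1.5 was 42 with limma. It was 17 without the mean-variance trend, 80 with robust variance estimates and 165 with DESeq2, and between 23 and 42 with 1 library left out, the lowest without PROSER1 KO replicate 2. By that rule 0 inhibitors were called under any setting. At an adjusted p under 0.05 alone, the count of called inhibitors was 0 with limma, and 1 with robust variance estimates and with DESeq2, in both cases Cdkn2c at a log2 fold change of 0.46, which is below 1.5-fold. It was 0 under each of the other 16 alternatives, and the 89 pathway genes had 0 calls under all 18. Cdkn2d turned from 0.05 to -0.10 without PROSER1 KO replicate 2. With 1 library left out at a time it ran from -0.10 to 0.17. The other tested inhibitors kept their direction under every alternative that gave a value, with Cdkn2a between 0.55 (pseudocount 10) and 1.51 (without wild-type replicate 4). For Cdkn2b, which has no value in the filtered fit, only the fit without filter and DESeq2 (-0.31) gave values. Cdkn2a was below a minimum mean of 50, and below 10 without PROSER1 KO replicate 2. The neighbour 9630013D21Rik passed the threshold under 4 alternatives (no filter, robust variance estimates, DESeq2 and without wild-type replicate 3), and Mmrn1 was also lost without the trend (adjusted p = 0.157). The causes of these differences were not tested.

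Replicate numbers are shared between the groups in the labels, but same-numbered libraries did not deviate together (correlation of deviations 0.02, 0.06 and -0.11 for numbers 1 to 3), and not every library correlated best with its own number. With the replicate number as a block, in which wild-type replicate 4 has no partner and carries no weight, 35 genes and 0 inhibitors were called, and the log2 fold change was 0.43 for Cdkn2c (adjusted p = 0.214), -0.25 for Cdkn1a, 0.12 for Cdkn1b, -0.22 for Cdkn1c, 1.51 for Cdkn2a and 0.04 for Cdkn2d.

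Depth limits Cdkn2a and Cdkn2b, where at most 21 read pairs were counted in a library. For the other tested inhibitors, the widest 95% interval of a log2 fold change ran from -0.49 to 0.13 (Cdkn1a).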
